A study of Mus musculus with 12 samples.

Results

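NF-kappaB is a family of dimeric transcription factors built from the Rel proteins, and the genes examined here encode its subunits, the proteins that restrain it and the lymphotoxins. The genes were taken by name, as every probe set that the platform annotation assigns to Nfkb1, Nfkb2, Rel, Relb, Nfkbia, Nfkbie, Tnfaip3, Bcl3, Lta or Ltb. This gave 12 of the 12422 probe sets tested, and covered 9 of the 10 listed genes, among 8251 genes analysed. Nfkb1 was not analysed here.

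RNA abundance was read on 12 Affymetrix arrays of thymus cell suspensions from C57Bl/6 mice, prepared on ice by mechanical dissociation. Of these, 8 held leukemic cells from the thymus of terminally ill mice carrying TEL-JAK2, a fusion of the transcription factor TEL (Etv6) with the tyrosine kinase JAK2. The other 4 held thymocytes from 2-month-old wild-type animals. The sources used here give neither the age of the leukemic mice nor the promoter that drives the fusion. No label says outright that each array is a separate animal, and p-values therefore reflect only how far these samples differ from each other, which may be technical. Leukemias and thymocyte samples are numbered in the order of their records.

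In resting cells the NF-kappaB dimers are held inactive by inhibitors of the IkappaB family, such as the product of Nfkbia. In the canonical pathway the IKK kinase complex marks these inhibitors for degradation, and the freed dimers then switch on Nfkbia and Tnfaip3, whose products shut the pathway down again. In the noncanonical pathway, driven by receptors such as the lymphotoxin-beta receptor, the precursor encoded by Nfkb2 is processed and pairs with RelB. Lymphotoxin alpha and beta, made by lymphocytes, form the membrane-bound ligand of that receptor, which in the thymus is carried by epithelial and other stromal cells.

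The promoter sequences are shown for the 4 members that passed the test below and for Nfkb2, the noncanonical subunit, because the members are best known as targets of NF-kappaB itself while the fusion carries the kinase that activates STAT factors. Each run gives the 250 bases upstream of the annotated start from RefSeq (GRCm38.p6), 5′ to 3′ on the strand of the gene. Capitals mark matches to the kappaB consensus, which begin or end with a run of G or C, and matches to the STAT motif TTCNNNGAA. Both strands were searched.
Ltb: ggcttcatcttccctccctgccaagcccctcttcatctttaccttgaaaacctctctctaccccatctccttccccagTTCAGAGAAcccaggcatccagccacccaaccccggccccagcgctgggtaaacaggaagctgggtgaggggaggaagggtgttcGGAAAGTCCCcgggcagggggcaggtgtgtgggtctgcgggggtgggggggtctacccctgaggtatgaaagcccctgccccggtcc
Lta: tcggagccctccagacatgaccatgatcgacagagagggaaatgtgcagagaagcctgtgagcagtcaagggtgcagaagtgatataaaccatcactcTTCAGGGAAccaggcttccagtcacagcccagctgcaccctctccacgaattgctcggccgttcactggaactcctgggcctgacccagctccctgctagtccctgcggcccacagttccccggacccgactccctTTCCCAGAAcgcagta
Nfkbia: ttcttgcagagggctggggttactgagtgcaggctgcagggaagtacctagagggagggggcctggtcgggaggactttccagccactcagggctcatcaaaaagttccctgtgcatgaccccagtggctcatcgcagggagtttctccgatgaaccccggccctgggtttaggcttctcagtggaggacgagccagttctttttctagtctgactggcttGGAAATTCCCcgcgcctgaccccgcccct
Tnfaip3: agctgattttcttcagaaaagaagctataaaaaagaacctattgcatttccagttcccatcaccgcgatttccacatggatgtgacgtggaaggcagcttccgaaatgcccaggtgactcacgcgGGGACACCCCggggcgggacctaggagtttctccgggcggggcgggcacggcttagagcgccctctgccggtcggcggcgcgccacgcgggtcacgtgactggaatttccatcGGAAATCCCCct
Nfkb2: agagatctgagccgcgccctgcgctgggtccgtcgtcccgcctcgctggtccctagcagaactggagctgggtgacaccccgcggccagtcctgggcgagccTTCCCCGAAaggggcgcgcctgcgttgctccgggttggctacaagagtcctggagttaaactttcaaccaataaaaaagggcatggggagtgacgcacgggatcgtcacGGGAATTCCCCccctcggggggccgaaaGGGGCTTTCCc
They lie at chr17:35194257-35194506 (Ltb, plus strand), chr17:35205352-35205601 (Lta, minus strand), chr12:55492648-55492897 (Nfkbia, minus strand), chr10:19015411-19015660 (Tnfaip3, minus strand, the second of 2 annotated starts) and chr19:46304487-46304736 (Nfkb2, plus strand, the first of 3 annotated starts).

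The kappaB match of Ltb starts 87 bases before the annotated start, and that of Nfkbia starts 29 bases before it. At the starts shown, Tnfaip3 holds matches at 125 and 12 bases, and Nfkb2 holds an overlapping pair at 39 and 38 bases and another match at 11. The STAT motif occurs 172 bases before the start of Ltb, 152 and 16 bases before that of Lta and 148 bases before the start shown for Nfkb2. The other annotated start of Tnfaip3 had no match to either motif. The other starts of Nfkb2 had 1 kappaB match each, at 236 and 225 bases, and no STAT motif. No kappaB match overlaps a STAT match. Promoters were at hand for 8 of the 9 genes (11 promoters), without Relb. A kappaB match was present in at least 1 promoter of 6 of these 8 genes (Nfkb2, Rel, Nfkbia, Nfkbie, Tnfaip3 and Ltb), and the same held for 10.8% of the 6576 genes on the array with a promoter. The STAT motif was present in 3 of the 8, against 7.39% of those genes. Counted over single promoters rather than genes, 9.01% of 8412 held a kappaB match and 6.09% held the STAT motif. A match describes the letters in this window and shows no binding, and the absence of a kappaB match upstream of Bcl3 and Lta concerns this window alone.

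The comparison asked which of these genes differ in RNA abundance between leukemic cells with TEL-JAK2 and wild-type thymocytes. Levels are log2 intensities, and each gene was tested with limma on its brightest probe set, with p-values adjusted by the Benjamini-Hochberg method over all 8251 genes and a threshold of 0.05. The 2 lymphotoxin genes were higher in leukemia, by 1.84-fold for Ltb and 1.54-fold for Lta. Nfkbia, the main IkappaB inhibitor, and Tnfaip3, which encodes the ubiquitin-editing enzyme A20, were 1.49-fold and 1.58-fold lower. The other 5 analysed members, Nfkb2, Relb, Rel, Nfkbie and Bcl3, did not pass the test. Thus 4 of 9 members passed, 2 in each direction, where 17.3% of all genes passed, 5.41% higher and 11.9% lower in leukemia. The median change of the members was 0.20 on the log2 scale, and that of all genes was 0.0037.

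**Figure D1:**
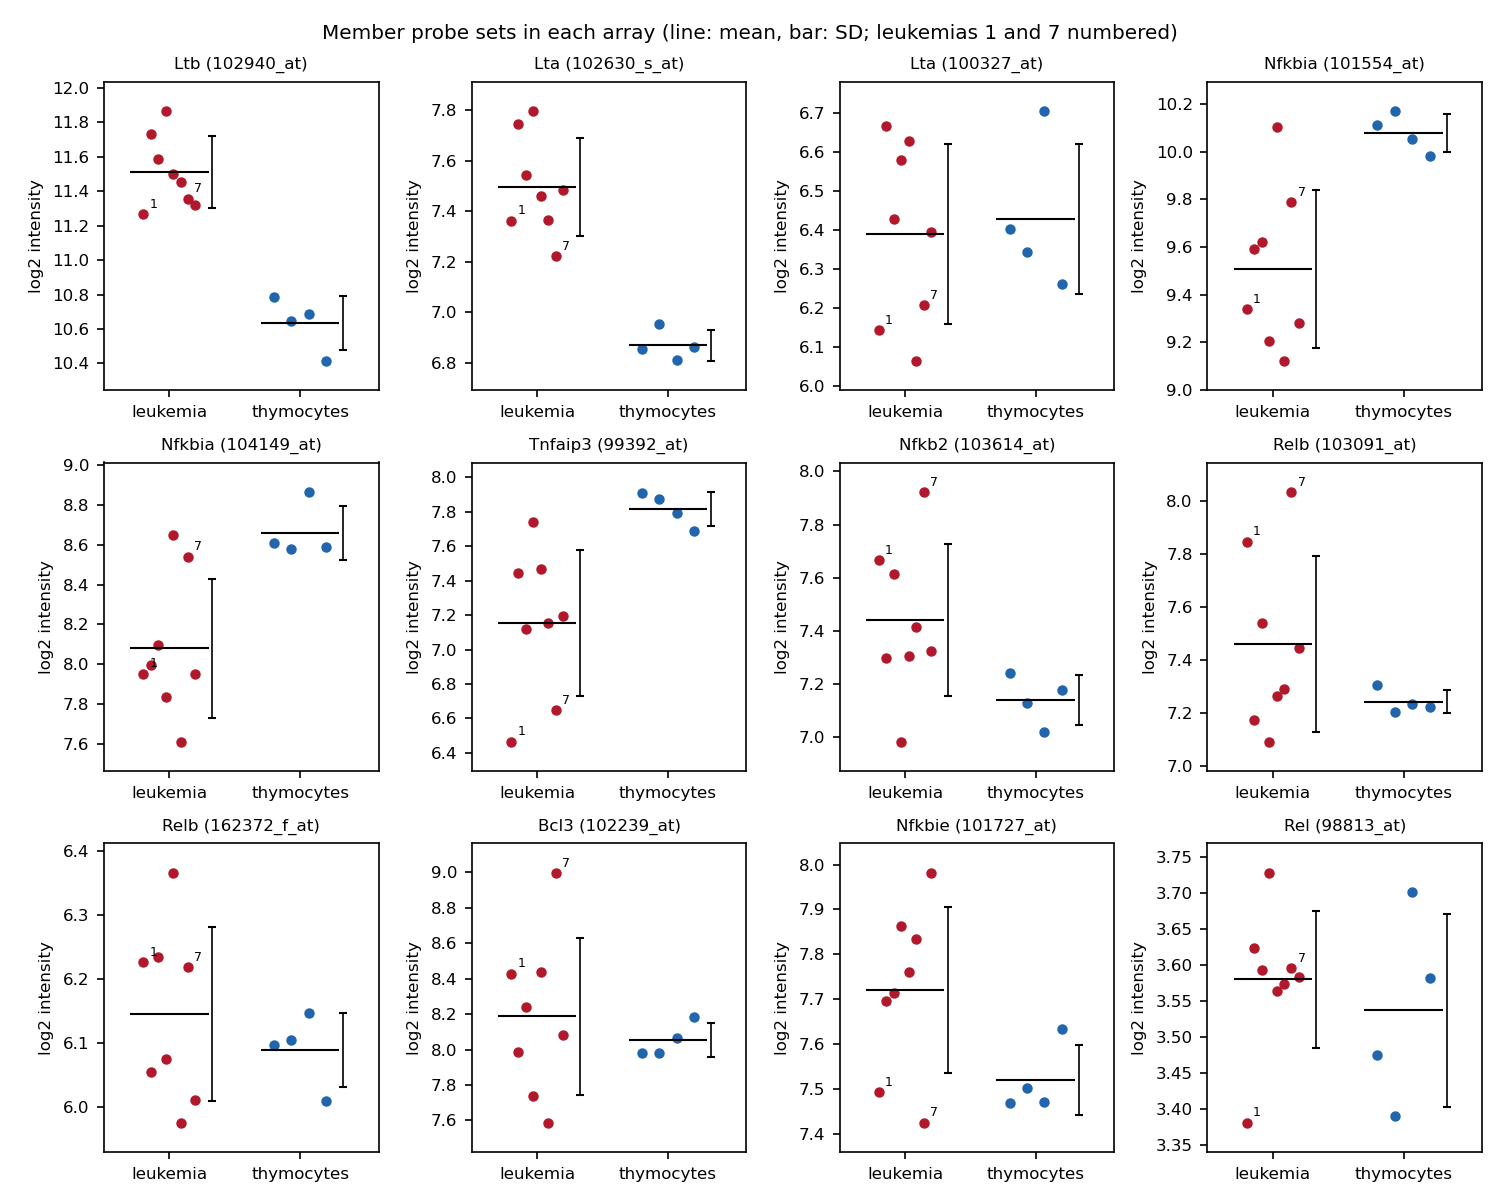
Log2 intensity of the 12 member probe sets in each of 8 leukemia and 4 thymocyte arrays, 1 panel per probe set with its own axis. Lines mark group means, bars mark 1 SD, and leukemias 1 and 7 are numbered. The groups separate for Ltb and for Lta on probe set 102630_s_at.

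Ltb (probe set 102940_at) encodes lymphotoxin beta, the chain that anchors the lymphotoxin heterotrimer in the membrane. Its log2 intensity in the 8 leukemias was 11.27 at the lowest, 11.48 at the median and 11.86 at the highest. In the thymocyte arrays it was 10.79, 10.64, 10.69 and 10.42. All 8 leukemias lay above all 4 thymocyte arrays. Such a separation, with all leukemias above, was found for 4.21% of all genes, and separation in either direction for 12.3%. The mean was 11.51 ± 0.21 (SD, n = 8) in leukemias and 10.63 ± 0.16 (SD, n = 4) in thymocytes. The change was 0.88 (SE 0.11, 95% interval 0.63 to 1.12, adjusted p = 0.000168). In such bulk samples, a change in the number of cells of a type and a change in RNA per cell cannot be told apart.

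Lta (probe set 102630_s_at) encodes lymphotoxin alpha, which is secreted alone as a trimer or held at the membrane by lymphotoxin beta. Its log2 intensity in leukemias was 7.22 at the lowest, 7.47 at the median and 7.79 at the highest, against 6.85, 6.96, 6.81 and 6.86 in thymocyte arrays. Here too every leukemia lay above every thymocyte array. The change was 0.63 (SE 0.10, 95% interval 0.41 to 0.84, adjusted p = 0.000741).

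The name of that probe set marks possible cross-hybridization, and the other probe set of Lta, 100327_at, did not show the difference. It read 6.06 at the lowest, 6.41 at the median and 6.67 at the highest in leukemias, against 6.40, 6.34, 6.70 and 6.26 in thymocyte arrays. The groups overlapped, with 3 leukemias below all thymocyte arrays and none above them. Its change was -0.038 (SE 0.13, 95% interval -0.31 to 0.23, adjusted p = 0.892 over all probe sets). With the mean of both probe sets the change of Lta was 0.29 (adjusted p = 0.0658). The increase of Lta therefore rests on 1 of its 2 probe sets.

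Lta and Ltb flank Tnf, which encodes the cytokine TNF, on chromosome 17 in the RefSeq annotation. Tnf read 6.21 to 6.55 in leukemias, against 6.22, 6.13, 6.26 and 6.36 in thymocyte arrays, and the groups overlapped. Its change of 0.15 (SE 0.08, adjusted p = 0.216) did not pass. Whether its change differs from those of its neighbours was not tested. Ltbr, the lymphotoxin-beta receptor, averaged 6.47 ± 0.18 (SD, n = 8) in leukemias and 6.47 ± 0.08 (SD, n = 4) in thymocytes (adjusted p = 0.974). The ligand gene Tnfsf14 and the receptor gene Tnfrsf14 were not analysed here.

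Nfkbia (probe set 101554_at) read 9.12 at the lowest, 9.47 at the median and 10.10 at the highest in leukemias, against 10.11, 10.17, 10.05 and 9.98 in thymocyte arrays. Of the 8 leukemias 7 lay below all thymocyte arrays, and leukemia 5 lay among them. The mean was 9.51 ± 0.33 (SD, n = 8) in leukemias and 10.08 ± 0.08 (SD, n = 4) in thymocytes, a change of -0.57 (SE 0.16, 95% interval -0.91 to -0.23, adjusted p = 0.0220).

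Both probe sets of Nfkbia gave this decrease. Probe set 104149_at read 7.61 at the lowest, 7.97 at the median and 8.65 at the highest in leukemias, against 8.61, 8.58, 8.86 and 8.59 in thymocyte arrays. Again 7 leukemias lay below all thymocyte arrays, with leukemia 5 the exception. Its change was -0.58 (SE 0.17, 95% interval -0.94 to -0.22, adjusted p = 0.0315 over all probe sets). Over probe sets, 5 of the 12 members passed, 2 higher and 3 lower, where 14.5% of all probe sets passed, 4.65% higher and 9.88% lower. The call of Nfkbia on probe set 101554_at was lost without thymocyte sample 1, 2 or 3 (adjusted p = 0.0685, 0.0753 and 0.0558) and by an exact rank-sum test (adjusted p = 0.0813). On probe set 104149_at it was lost without any 1 of the 4 thymocyte samples (adjusted p = 0.0764, 0.0696, 0.113 and 0.0565 without samples 1 to 4), without leukemia 8 (0.0548), after quantile normalization (0.0644), in the arrays with a title number of 4 digits (0.0820) and by the rank-sum test (0.134).

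Tnfaip3 (probe set 99392_at) read 6.47 at the lowest, 7.17 at the median and 7.74 at the highest in leukemias, against 7.91, 7.87, 7.79 and 7.69 in thymocyte arrays. Of the leukemias 7 lay below all thymocyte arrays and leukemia 4 lay among them, while leukemias 1 and 7 were the lowest at 6.47 and 6.65. The mean was 7.15 ± 0.42 (SD, n = 8) in leukemias and 7.81 ± 0.10 (SD, n = 4) in thymocytes, a change of -0.66 (SE 0.20, 95% interval -1.08 to -0.24, adjusted p = 0.0335). The call was lost without leukemia 3 or 8 or without any 1 of the 4 thymocyte samples (adjusted p from 0.0504 to 0.103), by the rank-sum test (adjusted p = 0.0515), and with the macrophage marker score as a covariate (-0.55, adjusted p = 0.119).

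Transcripts of Nfkbia and Tnfaip3 are induced within minutes in many cells, as are those of immediate-early genes, whose values are given beside them. Of 23 immediate-early and handling genes 5 fell, 1 rose and 17 did not pass, with a median change of -0.023. Of all genes 11.9% fell and 5.41% rose. Nr4a1, the gene of an orphan nuclear receptor (-1.07, SE 0.15), fell, as did the zinc-finger factor genes Egr1 (-1.54) and Egr2 (-1.21) and Zfp36 (-0.87, SE 0.11), which encodes an RNA-binding protein that destabilizes cytokine transcripts. Klf6, the gene of a Krueppel-like factor, rose (0.72, SE 0.13). The mean score of this list, relative to the thymocyte mean, was -0.37 to -0.07 in leukemias and -0.07 to 0.10 in thymocyte arrays. Its part in the decrease of Nfkbia and Tnfaip3 was not tested.

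Nfkbie encodes IkappaB epsilon, another cytoplasmic inhibitor. Probe set 101727_at read 7.42 at the lowest, 7.74 at the median and 7.98 at the highest in leukemias, against 7.47, 7.50, 7.47 and 7.63 in thymocyte arrays. Of the leukemias 6 lay above all thymocyte arrays and 1, leukemia 7, below them. The change of 0.20 (SE 0.10, 95% interval -0.0088 to 0.41, adjusted p = 0.197) did not pass. It passed without leukemias 1 and 7 (0.29, adjusted p = 0.0169) and in the arrays with a title number of 4 digits (0.28, adjusted p = 0.0215).

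Bcl3 encodes a nuclear IkappaB-like protein that binds dimers of the p50 and p52 subunits. Probe set 102239_at read 7.59 at the lowest, 8.16 at the median and 8.99 at the highest in leukemias, against 7.98, 7.98, 8.07 and 8.18 in thymocyte arrays. Of the leukemias 4 lay above and 2 below all thymocyte arrays. The change was 0.13 (SE 0.20, 95% interval -0.31 to 0.58, adjusted p = 0.725). It was -0.040 without leukemias 1 and 7 and -0.16 after adding the macrophage score as covariate.

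Among the subunits, Nfkb2 encodes the p100 precursor of p52. Probe set 103614_at read 6.98 at the lowest, 7.37 at the median and 7.92 at the highest in leukemias, against 7.24, 7.13, 7.02 and 7.18 in thymocyte arrays. Of the leukemias 7 lay above all thymocyte arrays, and leukemia 4 lay below them. The change was 0.30 (SE 0.14, 95% interval 0.0023 to 0.60), and it did not pass over all genes (adjusted p = 0.172). Without leukemia 4 it passed (0.37, adjusted p = 0.0463). It was 0.15 (adjusted p = 0.535) with the macrophage score included in the fit and 0.17 (adjusted p = 0.471) in the arrays with a title number of 4 digits.

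Relb encodes the usual partner of p52. Probe set 103091_at read 7.09 at the lowest, 7.37 at the median and 8.03 at the highest in leukemias, against 7.31, 7.20, 7.23 and 7.22 in thymocyte arrays. Of the leukemias 4 lay above all thymocyte arrays and 2 below them. Its change was 0.22 (SE 0.15, 95% interval -0.12 to 0.55, adjusted p = 0.398), and that of probe set 162372_f_at was 0.056 (SE 0.08, adjusted p = 0.715 over all probe sets). With the macrophage score included, the change of 103091_at was 0.071 (adjusted p = 0.835), and in the arrays with a title number of 4 digits it was 0.019 (adjusted p = 0.937).

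Rel, the gene of c-Rel, could not be followed. Its mean on probe set 98813_at was 3.58 ± 0.10 (SD, n = 8) in leukemias and 3.54 ± 0.13 (SD, n = 4) in thymocytes (adjusted p = 0.760). Both lie under the level of the non-mouse control probe sets, whose 95th percentile averaged 5.37 in leukemias and 5.34 in thymocytes. Rela, which encodes the p65 subunit of the canonical dimer, averaged 9.53 ± 0.06 (SD, n = 8) in leukemias and 9.59 ± 0.13 (SD, n = 4) in thymocytes (change -0.055, SE 0.07, 95% interval -0.20 to 0.09, adjusted p = 0.647).

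**Figure D2:**
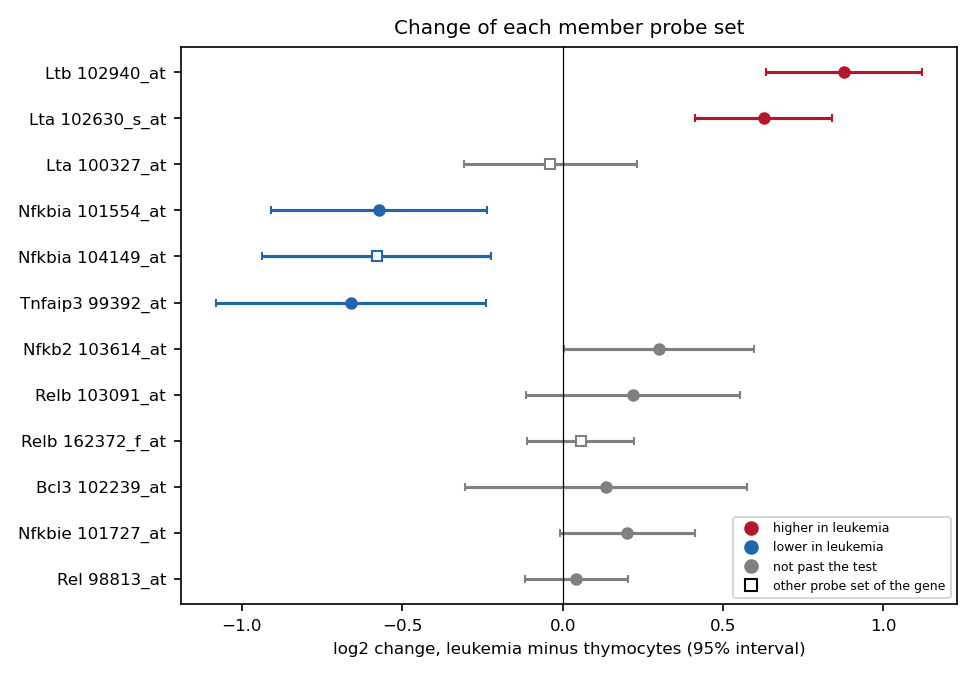
Log2 change, leukemia minus thymocytes, of each member probe set with its 95% interval. Circles are the brightest probe set of a gene, squares the other one, and colours mark the probe sets that passed. The 2 Nfkbia probe sets lie at -0.57 and -0.58, while those of Lta lie at 0.63 and -0.038.

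The leukemias varied more among themselves than the thymocyte arrays did. The SD over leukemias exceeded that over thymocytes in 8 of the 9 members, as it did for 79.0% of all genes, with median SDs over all genes of 0.17 in leukemias and 0.11 in thymocytes. Leukemias 7 and 1 were the highest 2 for Nfkb2 and Relb and among the highest 3 for Bcl3. The same 2 leukemias were the lowest 2 for Tnfaip3, Nfkbie and Lta. Leukemia 4 showed the opposite order, highest for Ltb, Lta and Tnfaip3 and lowest for Nfkb2 and Relb. For Nfkbia leukemia 5 was the highest and leukemia 6 the lowest. These orders are descriptions of 8 samples and were not tested.

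**Figure D3:**
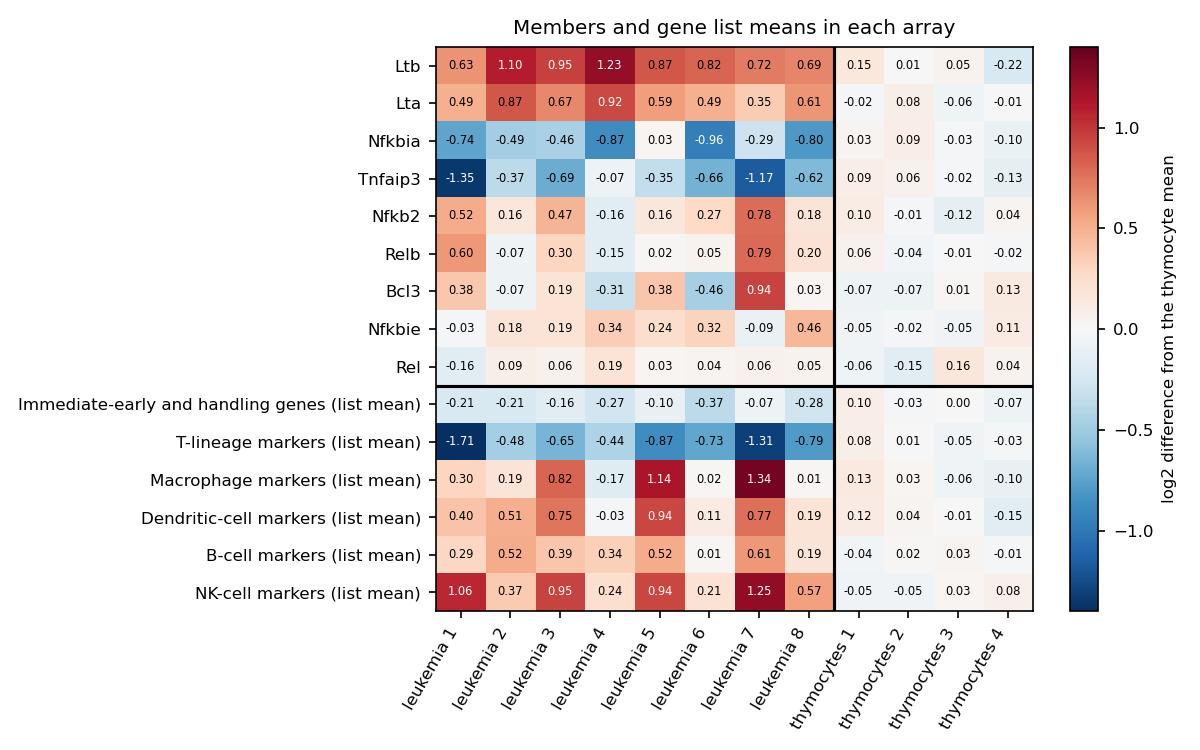
Difference of each array from the thymocyte mean on the log2 scale, for the 9 analysed members (top) and for the mean over 6 gene lists (bottom), with leukemias at the left and thymocyte arrays at the right. Leukemias 1 and 7 combine high Nfkb2, Relb and Bcl3 with the lowest T-lineage scores, -1.71 and -1.31.

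Leukemias 1 and 7 also had the lowest scores of T-lineage genes. That list mixes genes of T cells in general with genes of thymocyte stages, so fewer T cells and a change of stage cannot be told apart. All 15 analysed T-lineage genes lay above the control level in at least 1 group. Of them 5 fell, 1 rose and 9 did not pass, where 11.9% of all genes fell and 5.41% rose. Thy1, a surface marker of T cells, averaged 11.86 ± 0.31 (SD, n = 8) in leukemias and 12.17 ± 0.09 (SD, n = 4) in thymocytes (adjusted p = 0.186). It read 11.41 in leukemia 1 and 11.61 in leukemia 7 (mouse-level replication of arrays is not stated). Cd8b1, the other of the brightest T-lineage genes, did not pass either (-0.49, adjusted p = 0.183). The T-lineage score was -1.71 and -1.31 in leukemias 1 and 7 and -0.87 to -0.44 in the other 6, against -0.05 to 0.08 in thymocyte arrays.

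Of 22 macrophage markers none passed in limma or in the rank-sum test, where 17.3% and 12.3% of all genes did. At an unadjusted p under 0.05, 5 were higher. For this and the B-cell list below, the share of all genes at that unadjusted cutoff is not given here. The summed intensity of these markers was 2439 to 9790 in leukemias and 2528 to 3410 in thymocyte arrays. The median change of the list was 0.42. Of the 22 genes 8 were near the control level in both groups (Adgre1, Mrc1, Mertk, Itgam, Fcer1g, Marco, Cybb and Msr1), and 14 lay above it in at least 1 group. Of the 4 probe sets of Ctsb, a protease gene, the brightest did not pass (0.34, adjusted p = 0.104), and 92256_at (0.44, adjusted p = 0.0125) and 95608_at (0.47, adjusted p = 0.0461) were higher in leukemia over all probe sets. The score was highest in leukemias 7, 5 and 3 (1.34, 1.14 and 0.82), which were also the 3 highest for Nfkbia, and it was 0.30 in leukemia 1. With this score as a covariate the change of Nfkbia was -0.81 (adjusted p = 0.000154), that of Ltb was 0.92 and that of Lta was 0.71.

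The dendritic-cell score was -0.03 to 0.94 in leukemias and -0.15 to 0.12 in thymocyte arrays. Of its 16 genes 1 passed the test, where 17.3% of all genes did. Its brightest genes, Cd74 (1.16, adjusted p = 0.0536) and H2-Aa (1.32, adjusted p = 0.0599), did not pass. For 16 B-cell markers, a lineage that also makes lymphotoxins, none passed in limma, where 17.3% of all genes did. At an unadjusted p under 0.05, 3 were higher, and 1 passed the rank-sum test, where 12.3% of all genes did. The brightest, Cd79a, did not pass (0.70, adjusted p = 0.0798). The B-cell score was 0.01 to 0.61 in leukemias and -0.04 to 0.03 in thymocyte arrays. The summed intensity of the B-cell markers was 1160 to 2930 in leukemias and 1128 to 1158 in thymocyte arrays. The NK-cell score was 0.21 to 1.25 in leukemias and -0.05 to 0.08 in thymocyte arrays. The NK-cell sum was 2402 to 8194 in leukemias and 512 to 661 in thymocyte arrays. Of 11 NK-cell markers 1 rose, 1 fell and 9 did not pass, where 5.41% of all genes rose and 11.9% fell. Their median change was 0.098, and 7 were near the control level in both groups. The riser was the granzyme gene Gzma (3.67, SE 0.29), with all leukemias above all thymocyte arrays. The NK-cell score and sum include Gzma and were not computed without it. Leukemia 4, the highest for Ltb and Lta, had a macrophage score of -0.17, a dendritic-cell score of -0.03, a B-cell score of 0.34 and an NK-cell score of 0.24. Its B-cell and NK-cell scores lay above those of every thymocyte array. Only the macrophage score was fitted as a covariate, and the part of these cells in the changes of Ltb and Lta was not tested.

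Of 13 granulocyte markers 4 fell, none rose and 9 did not pass, where 11.9% of all genes fell. Those that fell were S100a8 (-1.66) and S100a9 (-0.91), which encode the subunits of calprotectin, and the granule protein genes Ngp (-0.95) and Camp (-0.49). The granulocyte score was -0.49 to -0.13 in leukemias and -0.06 to 0.14 in thymocyte arrays, so that every leukemia lay below every thymocyte array. Its part in the decrease of Nfkbia and Tnfaip3 was not tested. Of 16 endothelial and fibroblast markers 1 fell and 15 did not pass, and of 6 erythroid markers 1 fell and 5 did not pass.

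Without leukemias 1 and 7, a choice made after seeing the data, 5 of 9 members passed, 3 higher and 2 lower, where 17.6% of all genes passed. Ltb (0.94), Lta (0.69), Nfkbia (-0.59) and Tnfaip3 (-0.46) kept their calls and Nfkbie joined them. The changes of Nfkb2 and Relb were then 0.18 (adjusted p = 0.305) and 0.059 (adjusted p = 0.758).

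The titles divide the arrays into those with a number of 4 digits (leukemias 2 to 5, thymocyte samples 1 to 3) and the others. Within the first set, where 17.7% of all genes passed, Ltb changed by 0.97, Lta by 0.76, Nfkbia by -0.48 (adjusted p = 0.103) and Tnfaip3 by -0.41 (adjusted p = 0.0615). Within the second, with 1 thymocyte array, the differences were 0.93, 0.50, -0.60 and -0.82 in the same order, and none of them passed, in a set where 0.0485% of all genes did. With this division as a block the changes were 0.95, 0.68, -0.52 and -0.54, and all 4 passed, where 19.7% of all genes did.

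The rest of the pathway was read from 6 lists. Their counts stand beside the 17.3% of all genes that passed, 5.41% higher and 11.9% lower in leukemia. Among 27 other Rel, IkappaB and IKK-pathway genes 3 rose, 3 fell and 21 did not pass, with a median change of 0.023. The largest change was that of Map3k8, which encodes the kinase TPL2, held by the Nfkb1 precursor p105. Its probe set 97106_at read 6.68, 7.05, 7.18, 7.79, 7.63, 7.07, 6.73 and 7.38 in leukemias 1 to 8, against 5.36, 5.03, 5.20 and 4.86 in thymocyte arrays. The groups were far apart, and leukemias 1 and 7 were again the lowest and leukemia 4 the highest.

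The measured change of Map3k8 was 2.08 (SE 0.19, adjusted p = 1.13e-05). Since the thymocyte mean lay below the control level, the fold is given against that level, as at least 3.49-fold higher. Its other probe set, 161768_r_at, was near the control level in both groups and showed no difference past the test (-0.058, with an adjusted p of 0.823 among all probe sets). Myd88, the adaptor of Toll-like and interleukin-1 receptors, rose (0.56, SE 0.09, adjusted p = 0.000598). Traf2, an adaptor of TNF receptors (-0.28, SE 0.06, adjusted p = 0.00400), and Ikbke, an IKK-related kinase gene (-0.51, SE 0.11, adjusted p = 0.00583), fell. All leukemias lay above all thymocyte arrays for Myd88 and below them for Traf2 and Ikbke, a separation found with all leukemias below for 8.11% of all genes. The IKK subunit genes Ikbkb (0.023, adjusted p = 0.882) and Ikbkg (0.20, adjusted p = 0.134) and the inhibitor gene Nfkbib (0.17, adjusted p = 0.209) did not pass. Chuk and Map3k14 were not analysed here.

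Of 9 TNF-family ligands 2 rose and 7 did not pass, with a median change of 0.15. The risers, Tnfsf10 (0.46), the gene of TRAIL, and Tnfsf11 (0.77), that of RANKL, were near the control level in both groups. Of 17 receptors of the TNF, interleukin-1 and Toll families 2 rose, 2 fell and 13 did not pass, with a median of 0.038. Tnfrsf18, the gene of the costimulatory receptor GITR, averaged 9.43 ± 0.49 (SD, n = 8) in leukemias and 8.41 ± 0.09 (SD, n = 4) in thymocytes, and every leukemia lay above every thymocyte array (change 1.02, SE 0.23, adjusted p = 0.00622). Tlr6, a Toll-like receptor gene, rose by 0.82 near the control level of both groups.

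Fas, the gene of the death receptor, fell at least 2.00-fold, to below the control level in leukemias (measured change -1.18, SE 0.17, adjusted p = 0.000374), where its probe set can cross-hybridize. Cd27, a costimulatory receptor gene, fell on probe set 102282_g_at (-0.47, adjusted p = 0.0333), which can also cross-hybridize, and did not pass on 102281_at (-0.22, with an adjusted p of 0.283 among all probe sets).

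Of 53 NF-kappaB target genes 4 rose and 49 did not pass, where 5.41% of all genes were called higher. The median change was 0.054, and 21 genes were near the control level in both groups. At an unadjusted p under 0.05 there were 13 genes, of which 10 were higher. The share of all genes at that unadjusted cutoff is not given here, so this count shows no excess. The score of the list was -0.03 at the lowest, 0.13 at the median and 0.42 at the highest in leukemias, against -0.04 to 0.02 in thymocyte arrays, and it was highest in leukemias 7, 5 and 3, as was the macrophage score. Those that rose were Il2ra, the interleukin-2 receptor alpha chain (measured change 2.51, SE 0.26, at least 3.14-fold), the kinase gene Pim1 (0.67, SE 0.11), the peptide transporter gene Tap1 (0.95, SE 0.17) and the transcription factor gene Irf1 (1.01, SE 0.26). All leukemias lay above all thymocyte arrays for each of the 4. Il2ra, Pim1 and Irf1 are also known targets of STAT factors. Of 9 genes listed as stromal and downstream of the lymphotoxin-beta receptor 1 rose, 1 fell and 7 did not pass (median 0.031). The riser was Tnfsf11, counted above among the ligands and near the control level in both groups. Aire, the gene that drives tissue antigen expression in thymic epithelium, fell (-0.23, SE 0.07, adjusted p = 0.0471). For Aire all leukemias lay below all thymocyte arrays, but among all probe sets its adjusted p was 0.0527 and it did not pass. Of 13 thymic epithelial markers, which again include Aire, 4 fell, 1 rose and 8 did not pass, where 11.9% of all genes fell and 5.41% rose. The epithelial keratin gene Krt8 averaged 8.14 ± 0.29 (SD, n = 8) in leukemias and 8.22 ± 0.16 (SD, n = 4) in thymocytes.

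**Figure D4:**
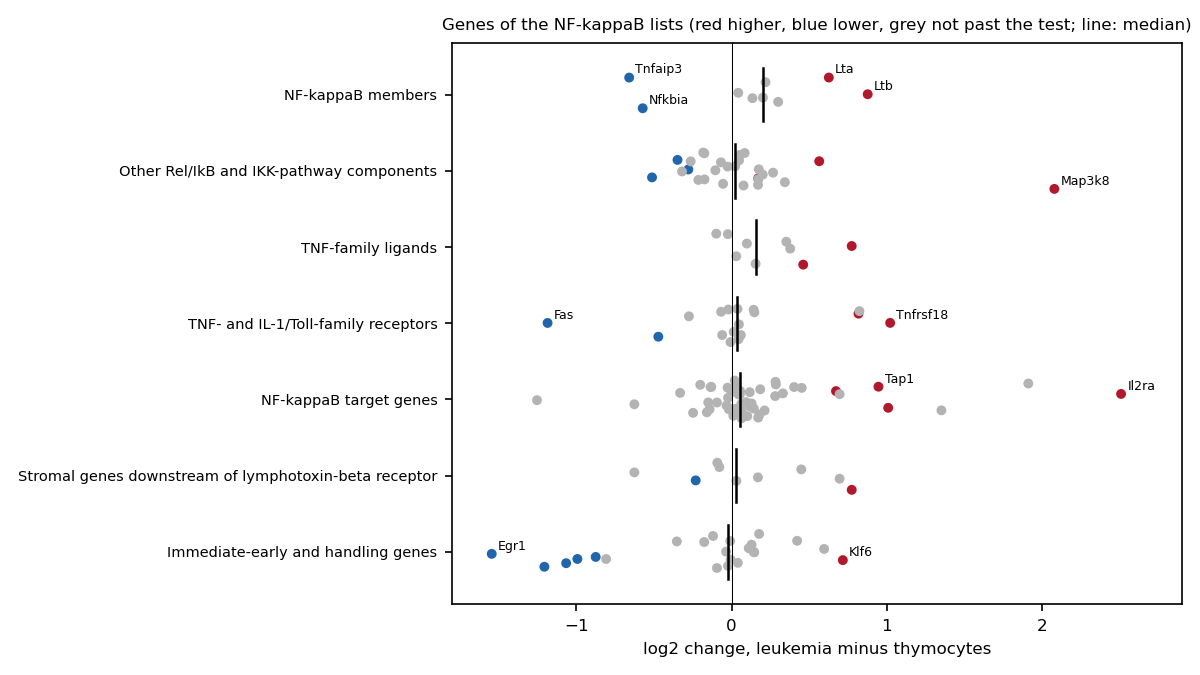
Log2 change, leukemia minus thymocytes, of each analysed gene in the member list and 6 pathway lists. Red genes passed as higher in leukemia, blue as lower, grey did not pass, and lines mark list medians, which lie between -0.023 and 0.20. Map3k8 (2.08) and Il2ra (2.51) lie farthest to the right, and 49 of the 53 target genes did not pass.

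The genes whose profiles came nearest to a member were sought for Ltb, Lta and Nfkbia, by the root mean square difference of mean-centred log2 values over the 12 arrays. For Ltb they were Klf6 (difference 0.13), the cholesterol-transfer gene Npc2 (0.13) and the steroid-converting enzyme gene Hsd11b1 (0.15), which changed by 0.72, 0.92 and 0.69. For Lta they were Use1 (0.10), Zfp277 (0.11) and Znrf2 (0.12), which changed by 0.54, 0.54 and 0.57. For Nfkbia they were Ybx3 (0.15), Laptm4b (0.16) and Galnt11 (0.17), which changed by -0.61, -0.77 and -0.63. This likeness includes the difference between the groups and says nothing of shared control.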

How the data were processed

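The authors deposited 1 intensity per probe set and array on a linear scale, for which the submitters' processing notes name RMA; the sources used here give no later step and no genome build of the annotation. RMA summarizes and normalizes arrays together, which compresses differences of dim probe sets. Array medians lay between 66.48 and 70.18, so intensities were converted to log2 without an offset. Of 12488 probe sets 66 were controls. By the platform annotation 10833 probe sets had 1 gene, 396 had several and 1193 had none. A gene was represented by its brightest probe set over 12 arrays. The two-sided test was limma's lmFit and eBayes without covariates (limma 3.58.1, R 4.3.3), with Benjamini-Hochberg adjustment. The fit was tested on simulated data. The control level is the 95th percentile of 19 non-mouse control probe sets per array. An "at least" fold sets the brighter group's mean against the higher of this level and the dim value, per array.

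Named are all members, fixed pathway genes, up to 4 genes past the threshold per list, the brightest markers, and nearest profiles. Other markers were named after their values were seen. Members and lists (16 lists, 264 of 337 genes analysed) were chosen with earlier results of these data known. Alternatives covered normalization, filters, variance, title numbers, covariate, test, threshold, probe sets and omitted arrays. The number of arrays limits precision.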

Additional observations from a re-analysis of the deposited data

Results flagged for a closer look

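In 4 groups of arrays the highest or lowest array lay farther from the others than Dixon's 95% limit allows. These are 4 of 108 groups examined (54 probe sets in both conditions), and chance flags about 1 in 20 groups. Leukemia 1 read 3.38 for Rel (98813_at), below the other leukemias at 3.56 to 3.73 and under the control level. Thymocyte sample 3 read 8.86 on the second Nfkbia probe set (104149_at), above the other thymocyte arrays at 8.58 to 8.61. Thymocyte sample 3 also read 6.91 for Ikbkg (103216_f_at), against 6.77 to 6.78 in the other thymocyte arrays. Thymocyte sample 4 read 12.30 for Thy1 (99057_at), against 12.11 to 12.14 in the others.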

How the results depend on the processing

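Ltb passed under 25 of 26 alternatives (changes 0.80 to 0.97), Lta under 23, Nfkbia under 19 and Tnfaip3 under 15, and Ltb, Nfkbia and Tnfaip3 kept their sign in all 26. Of the 9 members 4 passed. The count was 2 by the exact rank-sum test, where 12.3% of all genes passed, and 2 at an adjusted p under 0.01, where 9.89% did. The arrays without a 4-digit title number hold 1 thymocyte array, too few for a count of members to be read. With 1 array left out, 2 to 5 members passed, where 11.4% to 19.6% of all genes did. Of the 12 member probe sets 5 passed. The count was 3 after quantile normalization (14.1% of all probe sets), 3 in the arrays with a 4-digit title number (14.7%), 2 by the rank-sum test (10.7%) and 2 at an adjusted p under 0.01 (8.11%). By limma it was 0 in the arrays without a 4-digit number (0.105% of all probe sets, 3 members at an unadjusted p under 0.05), and 2 to 5 with 1 array left out (9.35% to 16.5%). Of 131 pathway genes 23 passed, where 17.3% of all genes did. The count was 15 at an adjusted p under 0.01 (9.89% of all genes) and 16 to 26 with 1 array left out (11.4% to 19.6%). The larger SD of leukemias in 8 members was also found in 8 with each array left out. Fewer arrays enter the title-number sets, and the cause of the other shifts was not tested.

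Values that changed sign were small, apart from Lta, which was -0.038 without probe sets marked for cross-hybridization. Ltbr turned to 0.020 after quantile normalization, 0.0047 after centring, 0.093 in the arrays without a 4-digit number, 0.014 without leukemias 1 and 7, and lay between -0.056 and 0.026 with 1 array left out. Rel turned to -0.048 in the arrays without a 4-digit number and lay between -0.0056 (without thymocyte sample 2) and 0.098 with 1 array left out. Rela turned to 0.12 in those arrays and to 0.053 as the mean of its probe sets. Ikbkg turned to -0.0086 without cross-hybridizing probe sets. Bcl3 turned to -0.16 with the macrophage covariate and to -0.040 without leukemias 1 and 7. The second Lta probe set turned to 0.044 with the title-number block, 0.093 in the arrays with a 4-digit number and 0.033 without leukemias 1 and 7, and lay between -0.094 and 0.054 with 1 array left out. The second Relb probe set turned to -0.033 with the covariate. No paired analysis was possible because the title numbers are not shared between the groups and the other replicate numbers only follow the order of the records. Values near the control level, as for Rel, Tnfsf10, Tnfsf11 and Tlr6, are limited by signal over background.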
